A study of Rattus norvegicus with 8 samples.

Results

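The miRNAs numbered miR-297, miR-466, miR-467 and miR-669 belong to a family of repeat-rich rodent miRNAs, and 10 of the 620 rows of the known rat miRNA table carry one of these numbers. The rows were chosen by name, in any letter case, with any arm or locus suffix, and 8 of them are miR-466 rows, 2 are miR-297 rows and 0 are miR-467 or miR-669 rows. The rule uses no read count. The family was put forward with the AA and control values of these kidneys already known, so the comparison between the groups is a description of its members and nothing is supported with it. Small RNA was sequenced from kidneys of 8 male Big Blue transgenic Fisher 344 rats, 6 weeks old when treatment began. The 4 rats of the AA group received aristolochic acid, a plant carcinogen of the kidney, as the sodium salt by gavage. The dose was 10 mg/kg on 5 days of each of 12 weeks. The 4 control rats were given saline (0.9% sodium chloride) as often and by the same route, and both groups carry the transgene for mutation assays.

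In the mouse, most members of this family are made from a long array of hairpins inside an intron of Sfmbt2, a polycomb gene that is imprinted and active in the placenta. A miRNA hairpin is cut into 2 strands, the 5p and the 3p arm, and the strand that was held to be the minor one was named with a star. The mature strand recognises targets mainly through its seed, bases 2 to 8 from the 5′ end. In this family the 5p arms are rich in alternating U and G and the 3p arms in alternating C and A, so that the arms can pair in the hairpin.

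The sequences below are those of the members that hold nearly all the reads, and they show how alike the arms are while the seeds differ. They are RefSeq sequences on the rat assembly GRCr8, printed 5′ to 3′ with the seed in capitals, and each lies on the minus strand.
rno-miR-466b-2-3p: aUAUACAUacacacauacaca
rno-miR-466b-3p: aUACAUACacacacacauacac
rno-miR-466b-5p: uAUGUGUGuguguauguccaug
rno-miR-466c-5p: uGUGAUGUguguauguacaug
rno-miR-466c-3p: uAUACAUGcacacauacacac
rno-miR-297: aUGUAUGUgugcauguaugcaug
The 7 mature sequences that RefSeq lists for the family, including rno-miR-466d, have 7 different seeds, and none of these seeds is found in another of the 694 distinct rat mature sequences. UGUGUG or GUGUGU, read on the mature strand only, is held by 4 of the 7 members and by 10 of the other 687, or 2.02% of all sequences. CACACA or ACACAC, read in the same way, is held by the other 3 members and by 10 of the others, or 1.87% of all. Both 6-letter forms of a pair overlap within a longer repeat. The 2 forms of the miR-466b 3p arm share an unbroken stretch of 13 bases, the longest between any members together with that of rno-miR-466d and rno-miR-466b-5p. This stretch is shorter than the 17 bases that the study required of a read, so a full read can in principle be told apart, but how reads with a mismatch were divided between the rows is not given in the sources used here.

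The name of the family's locus holds for the miR-466 hairpins and not for miR-297. On GRCr8, the 3p arms of the miR-466b hairpins lie at chr17:72942475-72942495 for rno-mir-466b-2 and chr17:72945512-72945533 for rno-mir-466b-1, and the 5p arm of rno-mir-466c lies at chr17:72927649-72927669. All 4 miR-466 genes lie within the bounds of Sfmbt2 and are read from the same strand, and their mature arms span 32509 bases. Whether each lies in an exon or an intron was not analysed here. rno-miR-297 lies at chr10:98715721-98715743, within the bounds of the uncharacterised lncRNA gene LOC102549836 and on another chromosome than Sfmbt2.

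Of the 10 names, 1 (rno-miR-297) is written as in RefSeq, which uses the newer arm names. rno-miR-466b-1* and rno-miR-466b-2* carry a hairpin number, while the 5p arm of both hairpins is 1 and the same sequence, so the starred rows were read as the 3p arms. For rno-miR-466c and rno-miR-466c*, the table does not say which arm is which, and both arms are therefore printed above. A further 4 member rows are spelled mir in place of miR (rno-mir-466b-1*, rno-mir-466b-2*, rno-mir-466d* and rno-mir-297*). They were counted separately by the authors, as were all 61 rows of this spelling, each of which carries a star, and which sequence they stand for is not given in the sources used here.

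The libraries held 13412373 to 15616670 reads on known miRNAs, taken as the sum of the counts. The paper's total of reads on known rat miRNAs, for all kidneys together, is lower than the sum of each library. The sources used here do not explain this conflict, nor say whether a read could count in several rows. Depth, RPM and counting-error intervals rest on these sums. No difference in depth between AA and control libraries passed the threshold (p = 0.771 in a two-sided exact permutation test). With 4 against 4 rats, that test can give no p below 0.0286. A tissue label reads liver, while the paper and the design text name the kidney. The summed miRNAs listed for the nephron (6 of 6 listed, among them miR-192, miR-204 and miR-30a) took 15.3% to 21.1% of the reads of each library. In every library miR-30a made up most of that sum, which rests little on miR-204. How specific the listed miRNAs are to the nephron was not tested. The liver miRNA miR-122 took at most 0.0634%, in the second AA library.

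The family is rare in kidney. Its 10 rows held 662 of 117232063 reads, or 5.65 reads in each 1000000 (RPM), with 154 in control rats and 508 in AA rats. The control libraries held 40, 38, 45 and 31 reads on the family and the AA libraries 86, 180, 85 and 157. Every AA library thus held more reads than every control library, and the second and the fourth AA libraries held the most. In CPM, the same unit after TMM scaling of the libraries, control rats had a sum of 2.78 ± 0.194 and AA rats one of 7.89 ± 1.93 (SD, n = 4 each), a ratio of 2.84. The sum is carried by 3 rows, rno-miR-466b-2*, rno-miR-466c and rno-miR-466b-1*, which took 82.0% of the family's reads. In bulk kidney RNA, a change in the number of cells that make a miRNA and a change in its amount per cell cannot be told apart.

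**Figure D1:**
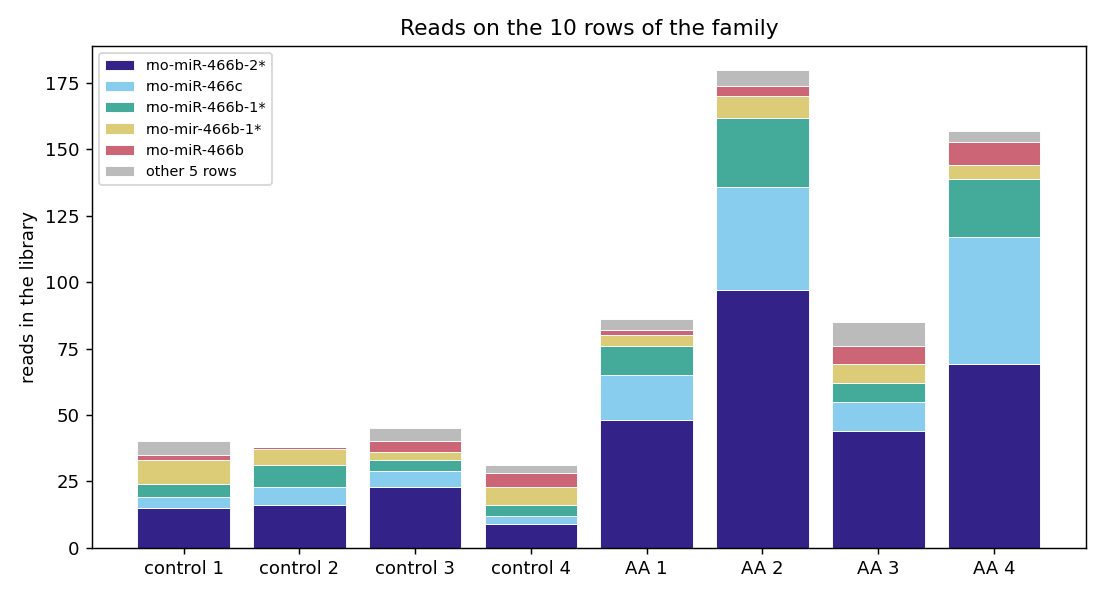
Bars give the reads on the 10 family rows in each library (vertical axis, number of reads, not scaled), split by row, with the 5 rows of fewest reads added together. Totals run from 31 to 45 in the 4 control libraries and from 85 to 180 in the 4 AA libraries, and rno-miR-466b-2* is the largest part in each bar.

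The best-counted member was rno-miR-466b-2*, the 3p arm printed first above. It had 15, 16, 23 and 9 reads in the control libraries and 48, 97, 44 and 69 reads in the AA libraries. The lowest AA library lay above the highest control library, both in reads and in CPM. Its level was 1.12 ± 0.287 CPM in control rats and 4.02 ± 0.936 CPM in AA rats (SD, n = 4 each). The quasi-likelihood fit of edgeR over 367 miRNAs put this at 3.57-fold, or 1.84 ± 0.29 on the log2 scale (estimate and standard error), with a Benjamini-Hochberg adjusted p = 0.0018. Even in the AA group this is far from an abundant miRNA, and it ranked 287 of 620 by reads over the 8 libraries. The 95% exact binomial interval, which covers counting error only, was 0.300 to 1.24 RPM in the fourth control library, the lowest, and 5.17 to 7.78 in the second AA library, the highest.

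rno-miR-466c had 4, 7, 6 and 3 reads in the control libraries and 17, 39, 11 and 48 reads in the AA libraries. The groups did not overlap here either, but the AA rats were spread widely, from 11 reads in the third library to 48 in the fourth. Its level was 0.358 ± 0.117 CPM in control rats and 1.76 ± 0.914 CPM in AA rats (SD, n = 4 each). The same edgeR fit gave 4.83-fold, or 2.27 ± 0.46 on the log2 scale, and an adjusted p = 0.0074. It entered the test only through the AA group, since the test asked for at least 10 reads in at least 4 libraries and 0 control libraries reached 10. Its passing the filter and its difference are therefore not separate facts.

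The members called higher in the AA group were these 2, while 38 of the 367 tested miRNAs, or 10.4%, were called higher. Nothing is read from this count, since rno-miR-466c could enter the test only by being high in the AA group. Among all tested miRNAs, 22 had a log2 fold change at least as high as that of rno-miR-466b-2* (5.99%), and 16 at least as high as that of rno-miR-466c (4.36%). Over all tested miRNAs the median was 0.06 on the log2 scale, and it was 0.27 when total counts replaced TMM scaling, a shift that took rno-miR-466b-2* to 2.05 and rno-miR-466c to 2.49.

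**Figure D2:**
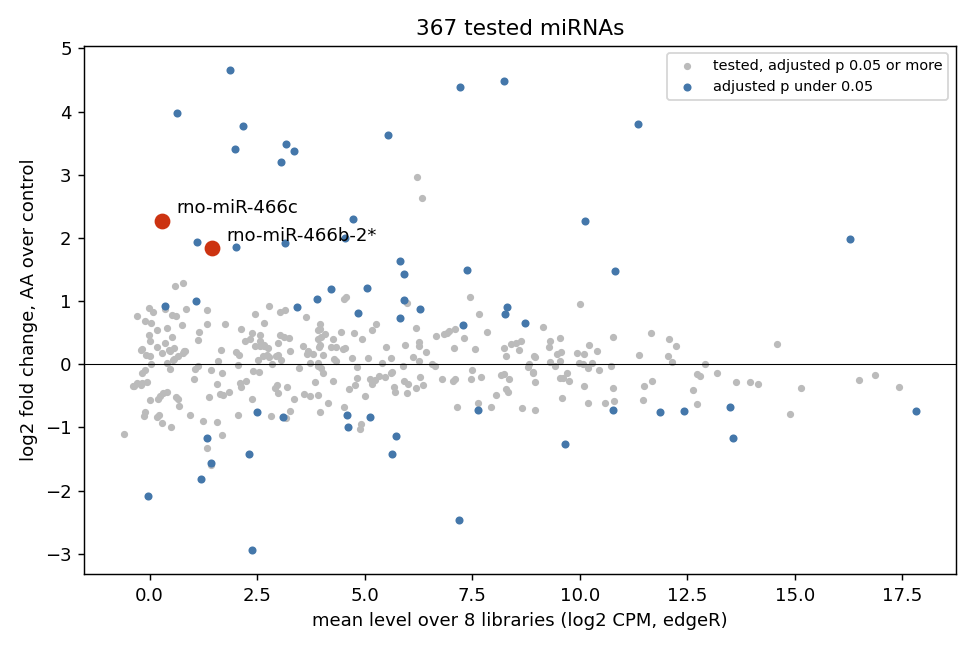
Each point is 1 of the 367 tested miRNAs, with its mean level (horizontal axis, log2 CPM) and its log2 fold change of AA over control (vertical axis). The 2 tested family members, in red, lie at the low end of the level axis at 1.84 (rno-miR-466b-2*) and 2.27 (rno-miR-466c), above the median of 0.06.

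rno-miR-466b-1*, the 3p arm of the other miR-466b hairpin, reached 10 reads in 3 libraries only and was not in the main test. It had 5, 8, 4 and 4 reads in the control libraries and 11, 26, 7 and 22 reads in the AA libraries. The second and the fourth AA library were again the highest, and the third was the lowest of the AA group, with fewer reads than the second control library, so the groups overlapped. Its level was 0.384 ± 0.146 CPM against 1.01 ± 0.429 CPM (SD, n = 4 each). When edgeR was fitted to all 620 rows without the filter, it stood at 1.39 ± 0.46 on the log2 scale, and its adjusted p = 0.079 does not pass the threshold of 0.05. The call moved with the processing. Without the filter, the adjusted p from edgeR was 0.038 with total counts in place of TMM scaling, 0.047 with the library number as a block and 0.034 without the third AA library. Under the other 10 alternatives that included this row it did not pass, with an adjusted p up to 0.23 (edgeR and DESeq2).

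**Figure D3:**
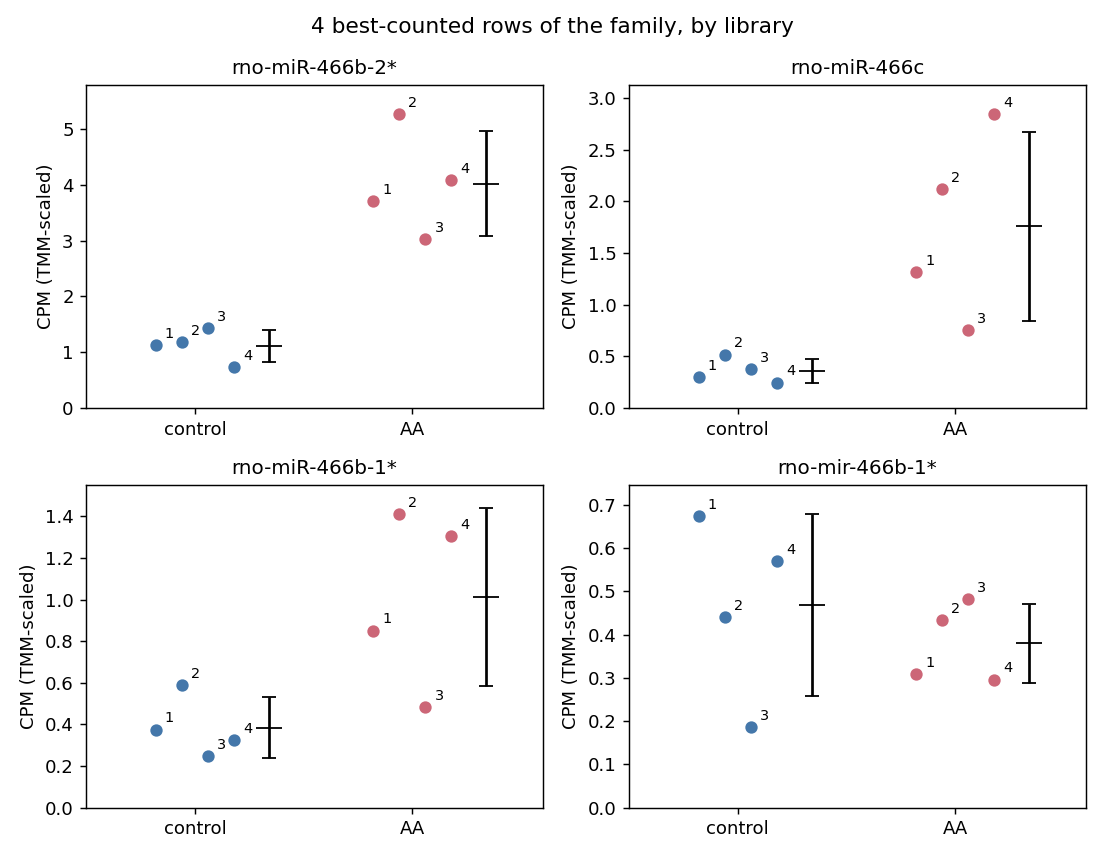
Points give the level of 4 rows in each library (vertical axis, CPM after TMM scaling, with a scale for each panel), numbered by library, and the bar beside them gives the mean and SD of the 4 libraries. The AA points of rno-miR-466b-2* (lowest 3.03) and rno-miR-466c (lowest 0.757) lie above all control points (highest 1.43 and 0.515), whereas the groups overlap for rno-miR-466b-1* and for the row spelled rno-mir-466b-1*.

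The 2 hairpins of miR-466b can be compared through the rows of their 3p arms only as far as reads were assigned to the right row. How reads with a mismatch were divided between these alike rows is not given in the sources used here, so the shares are those of the rows. rno-miR-466b-2* made up 75.0% of the reads on both 3p arms in control rats (63 of 84) and 79.6% in AA rats (258 of 324). By library the share ran from 66.7% to 85.2% in the control group and from 75.8% to 86.3% in the AA group, so the ranges overlapped. The exact 95% intervals were widest in the fourth control library, from 38.6% to 90.9%.

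The star in the miR-466b names did not mark the arm with fewer reads in these libraries. Whether arms of different sequence were recovered equally by the library preparation was not tested. The 5p arm rno-miR-466b, whose sequence is common to both hairpins, had 2, 1, 4 and 5 reads in the control libraries and 2, 4, 7 and 9 in the AA libraries, against 20, 24, 27 and 13 and then 59, 123, 51 and 91 for the 3p arms together. Of the reads on the 3 rows, the 5p arm held 12.5% in control rats (12 of 96) and 6.36% in AA rats (22 of 346). In each of the 8 libraries the starred arms had more reads than the unstarred arm. Without the filter, edgeR put rno-miR-466b at 0.65 ± 0.62 on the log2 scale (adjusted p = 0.52), which does not pass the threshold and is too imprecise to set beside that of the 3p arms. rno-miR-466c had the opposite order. Its unstarred row held 20 of 24 reads in control rats and 115 of 124 in AA rats. rno-miR-466c* had 3, 0, 1 and 0 reads in the control libraries and 0, 3, 6 and 0 in the AA libraries, with no order between the groups.

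rno-miR-297, the member on chromosome 10, had 1, 0, 0 and 1 reads in the control libraries and 2, 3, 2 and 3 in the AA libraries. The groups did not overlap, at a level of only 2 reads against 10 in all, and the ratio of the scaled reads was 4.41 with an exact 95% interval from 0.939 to 41.4 that covers counting error only. Its adjusted p without the filter was 0.21 (edgeR). With rno-miR-466b-2* and rno-miR-466c, it makes 3 of the 10 rows whose CPM lay higher in every AA library than in every control library, against 60 of all 620 rows, or 9.68%.

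The 4 rows spelled mir held 60 reads in all and were not higher in the AA group. They summed to 32 reads in control rats and 28 in AA rats, while the 6 rows spelled miR summed to 122 and 480. rno-mir-466b-1* had 9, 6, 3 and 7 reads in the control libraries and 4, 8, 7 and 5 in the AA libraries, or -0.27 ± 0.49 on the log2 scale (edgeR without the filter, adjusted p = 0.74). The AA range lay within the control range, at 0.468 ± 0.211 CPM against 0.380 ± 0.0918 CPM (SD, n = 4 each). rno-mir-466b-2* had 0, 0, 4 and 1 reads and then 2, 0, 0 and 1. rno-mir-466d* had 1 read in the first and 1 in the fourth control library and 0 in the AA libraries, and rno-mir-297* had 1 read in the third AA library. For the last pair both groups are at or below 3 reads, and no fold is given. With a limit of 3 reads, a count of 0 in a library allows up to 0.192 to 0.224 RPM, depending on its depth, so lower levels of these rows could be missed in a library at this depth.

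Without the filter, 7 of the 10 rows had a log2 fold change above 0, with a median of 1.16, against 54.7% of all 620 rows and a median of 0.09. Of the 8 rows with reads in both groups, 6 were above 0, and the median was the same. Only 2 of the 10 rows passed an adjusted p of 0.05 in that fit, where 6.13% of all rows were called higher, and 7 of the 10 rows had fewer than 50 reads over the 8 libraries.

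**Figure D4:**
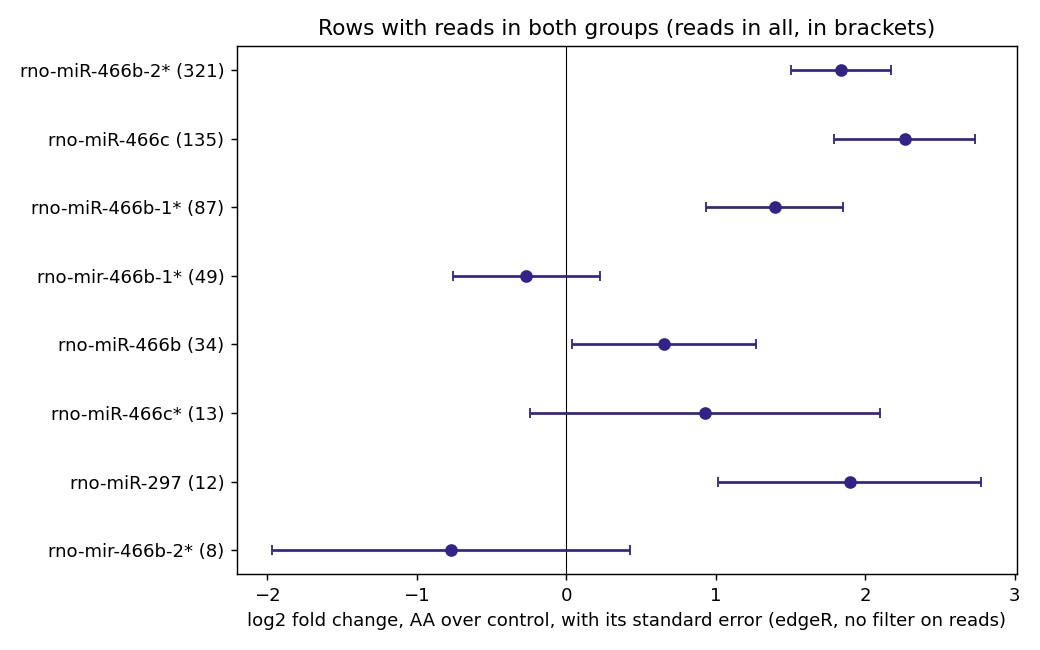
Points give the log2 fold change of AA over control (horizontal axis) with its standard error from the edgeR fit without a filter, for the 8 rows with reads in both groups, ordered by their reads over the 8 libraries (in brackets). The errors widen from 0.33 for rno-miR-466b-2* to 1.20 for rno-mir-466b-2*, and the rows spelled mir lie below 0.

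The miRNAs whose profile over the 8 libraries was closest to that of rno-miR-466b-2* outside the family were rno-miR-142-3p, a miRNA of blood-forming cells and leukocytes, then rno-miR-708 and rno-miR-132. The measure is the root mean square difference in log2 CPM after each profile was centred on its own mean, and it was 0.31, 0.32 and 0.35 on the log2 scale. rno-miR-466c stood at 0.38. Its own closest profile outside the family was that of rno-miR-708 at 0.34, then that of rno-miR-142-3p at 0.36. The measure takes in both groups, so miRNAs with a like difference between AA and control lie close to each other. rno-miR-142-3p had 954 ± 146 CPM in control rats and rose to 2649 ± 881 CPM in AA rats (SD, n = 4 each), a change of 1.47 ± 0.23 on the log2 scale (edgeR, adjusted p = 0.0018), so it is far more abundant than any family member. The 2 tested miRNAs next to rno-miR-466b-2* in control level, rno-miR-425* above and rno-miR-501 below, had log2 fold changes of 0.22 and 0.44 and were not called (adjusted p = 0.71 and 0.28 from edgeR). Next to rno-miR-466c, rno-miR-450a* above was not called (log2 fold change 0.76, adjusted p = 0.24 from edgeR). rno-miR-741-3p below was called higher in the AA group (log2 fold change 4.66, adjusted p = 0.041 from edgeR).

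The 6 listed leukocyte miRNAs (miR-223, miR-150, both arms of miR-142, miR-146b and miR-146a) summed to 2468 to 3557 CPM in the control libraries and 4259 to 8104 CPM in the AA libraries, and none was at 0. Called higher were 3 of the 6, miR-142-3p itself, miR-146b and miR-223. The log2 fold changes of the 3 that did not pass were 0.58 for miR-150, 0.30 for miR-142-5p and -0.09 for miR-146a (adjusted p = 0.062, 0.56 and 0.71 from edgeR). The fourth AA library had the highest sum and the third the lowest of the AA group. The red blood cell miRNAs miR-144 and miR-451 summed to 499 to 798 CPM and 158 to 564 CPM, with 0 of 2 called. The 6 nephron miRNAs summed to 163920 to 235714 CPM in the control libraries and 126468 to 180763 CPM in the AA libraries, 2 of the 6 were called lower (miR-204 at -0.80 and miR-194 at -0.73 on the log2 scale, adjusted p = 0.034 and 0.0499 from edgeR) and none was at 0. The part of leukocytes or of the nephron in the family's difference was not tested. The second AA library, highest for rno-miR-466b-2*, was also the one with the most miR-122, and without it the log2 fold changes were 1.54 for rno-miR-466b-2* and 2.02 for rno-miR-466c.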

How the data were processed

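Small RNA libraries from 8 rat kidneys were read on an Illumina Genome Analyzer II instrument. What the authors deposited were raw counts of reads per known rat miRNA, made with miRanalyzer and Bowtie on miRBase version 17, without normalization. The submitters' processing notes also name DESeq. Tool versions are not given in the sources used here. Each library came from 1 rat, and groups were taken from the sample titles. The 28 pairs of libraries differed by a chi-square of at least 437 per degree of freedom within a group and 1386 between the groups. No column of counts is thus a copy of another. This cannot show that libraries come from separate animals, and each was counted as a separate sample on the paper's account of 8 rats.

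The quasi-likelihood test of edgeR (version 4.0.16, under R 4.3.3, with TMM scaling, Benjamini-Hochberg adjustment and a threshold of 0.05) was applied to these counts for 367 miRNAs, those that reached 10 reads in 4 or more of the 8 libraries. CPM are counts over the TMM library sizes, also for rows below the filter. Standard errors are the size of the log2 fold change over the square root of F. On counts simulated for these 367 miRNAs and this comparison, 97% of 200 changes of 2 on the log2 scale were recovered, with 4 false calls. These figures are over all levels together and with 200 of the 367 changed, so they do not give the recovery at the low level of the members. The depth of 13412373 to 15616670 reads per library, taken as the sum of the counts, leaves most members limited by counting error.

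Named were all members, the 3 closest profiles to the best-counted member, its neighbours in control level, and seed mates, of which there were 0. Beyond that plan, closest profiles and level neighbours of rno-miR-466c are given too. The planned list of repeat-like miRNAs outside the family was void, since 58 of 367 tested names matched a RefSeq mature name. The alternatives were DESeq2 1.42.0, other scalings and filters, a block for the library number, and fits that each lacked 1 library. The members and lists were chosen with earlier results of these data known.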

Additional observations from a re-analysis of the deposited data

Results flagged for a closer look

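rno-mir-297* stood apart in the third AA library, at 0.0688 CPM against 0 in the other AA libraries. The value is 1 read. It was the only 1 of the 20 groups of 4 libraries examined over the family in which a library lay far from the rest. A row with reads in only 1 library of a group is always flagged in this way, so nothing is read from it. The chance rate of about 1 group in 20 is meant for continuous values and does not hold for counts of 0 and 1.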

How the results depend on the processing

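rno-miR-466b-2* and rno-miR-466c were called higher in the AA group under 14 of 14 alternatives each. The log2 fold change of rno-miR-466b-2* ranged from 1.54 to 2.05 and its adjusted p up to 0.010, and that of rno-miR-466c from 1.87 to 2.52 with an adjusted p up to 0.032 (edgeR and DESeq2). With at least 10 reads asked in all 8 libraries, neither was tested. The main filter was set on all 8 libraries and kept in the fits that lacked 1. rno-miR-466c reached 10 reads in 4 AA and 0 control libraries, so without any 1 AA library it would not have met that filter. Its calls in those fits are thus not separate from its high AA reads. The count of called members stayed at 2, with each library left out in turn too (2 to 2), and was 3 without a filter together with total counts or with the block, which adds rno-miR-466b-1* at log2 fold changes of 1.63 and 1.34 (adjusted p = 0.038 and 0.047 from edgeR). Combinations with no filter were added after the data were seen. Over all miRNAs, 60 were called (38 higher and 22 lower), and 36 to 54 with 1 library left out, with the lowest counts without the second (36) and first (38) control library. Total counts gave 54 higher and 14 lower.

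The fold changes of 2 sparse rows changed sign without the third library of a group. rno-miR-466c* went to -0.22 without the third AA library, and rno-mir-466b-2* to 0.66 without the third control library, as each then loses most reads of a group. The ratio of the summed levels, 2.84, was 3.32 in RPM, 3.40 over the rows spelled miR, 0.765 over those spelled mir, and 2.62 to 3.09 with 1 library left out.

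The library numbers are shared by both groups. Deviations of same-numbered libraries had correlations of 0.05, 0.20, 0.14 and 0.35 across 367 miRNAs, which are not independent. None was computed for libraries of different numbers, so these values cannot settle whether the number is a pairing. The main fit did not use it as one. With the number as a block, 78 miRNAs were called (92 without a filter), against 60 in the main fit, and both members stayed called.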
